A study of Mus musculus with 10 samples.

Results

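Late Fev cells are cells of the embryonic mouse pancreas that carried *Fev* and *Chgb* transcripts. They held no transcript of *Pax4*, at most 1 of *Neurog3* (also called *Ngn3*), and little message of *Gcg*, *Ins1*, *Ins2*, *Sst* and *Ghrl*. Other hormone genes, such as *Pyy* and *Iapp*, were not limited. The cells were picked from the deposited counts of unique molecular identifiers (UMIs) by a rule on 10 genes. A cell needed 200 or more detected genes, at least 2 UMIs of *Fev* and 5 of *Chgb*, no UMI of *Pax4*, no more than 1 of *Neurog3* and no more than 1 of *Col3a1*. *Gcg*, *Sst* and the sum of *Ins1* and *Ins2* each had to stay under 1% of the UMIs of the cell, and *Ghrl* under 0.3%. The rule found 960 cells, which were 1.66% of 57982 cells with 200 genes (of 66017 barcodes) and 12.4% of the 7746 cells that passed any endocrine gate. Because these 10 genes chose the cells, their values are given as a description and were never tested.

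The study profiled dissociated pancreata with droplet single-cell RNA sequencing to follow how endocrine cells arise. Swiss Webster embryos gave 7 pools, 4 with a version 1 kit (v1), namely E12.5, 2 batches of E14.5, and E17.5, and 3 with a version 2 kit (v2), 1 for each of these stages. Values of the v1 pools are given in that order and those of v2 by rising stage. An E14.5 pool of Fev-Cre;ROSA26mTmG embryos was the 8th, in which Cre driven by *Fev* sequence switches a membrane reporter from *tdTomato* to *eGFP*. All live cells were loaded for v1, cells negative for the mesenchymal surface protein CD140a for v2, and GFP+ cells mixed with TdTomato+ cells for Fev-Cre. Embryos were pooled before loading, so the pool is the replicate. Between classes, p-values below measure how the difference within a pool varied from pool to pool. Between stages they measure the spread left between pools after a term for kit. Pools differ in litter and partly in day and kit. The v1 pools of E12.5, E17.5 and the second E14.5 batch belong to 1 batch by their labels, and the first E14.5 batch was collected on another day. The genetic background, the sort and the reporter of Fev-Cre cannot be told apart from one another in what that pool shows.

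Pools held 11 to 569 late Fev cells, with 11, 35, 56 and 23 in the v1 pools, then 66, 156 and 44 in v2, and 569 in Fev-Cre, or 59.3% of all. They had a median of 2782 to 7146 UMIs per cell, and their summed UMIs ran from 43885 in v1 E12.5 to 4101080 in Fev-Cre, so levels in the smallest v1 pools are the least precise. The v2 E17.5 pool was loaded in 2 wells of similar size, with 6433 and 6337 cells, yet 7 late Fev cells came from well 1 and 37 from well 2. The labels call the wells technical replicates, but their late Fev shares differed beyond counting error, and whether both held the same cell suspension was not tested. Pairs of libraries shared 10 to 155 barcodes, and no late Fev barcode occurred in both libraries of any of the 16 pairs. Haemoglobin genes, which these cells should lack, took 0.000585% (Fev-Cre) to 2.50% (v1 E14.5 batch 2) of late Fev UMIs. Hormone message in mesenchymal cells varied as well, and after thinning to 2000 UMIs *Gcg* was in 40.6% of them in Fev-Cre against 1.74 to 7.89% in the other pools. *Ins1* was in 26.7% of mesenchymal cells in Fev-Cre, 40.5% in v2 E17.5 and at most 9.04% elsewhere. Among late Fev cells 50, or 5.21%, held markers of another cell type or much haemoglobin.

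Endocrine cells of the pancreas arise from the trunk epithelium after a pulse of *Neurog3*, a basic helix-loop-helix factor that switches on *Neurod1*, *Pax4* and *Insm1* and forces cells out of the cycle. The daughter cells leave the epithelium, fill secretory granules and take up a hormone fate under opposed regulators, with Irx factors on the glucagon side and *Pax4*, *Pdx1* and *Nkx6-1* on the insulin side. *Fev* (also Pet1) is an ETS-family transcription factor best known from serotonergic neurons, where it drives the serotonin synthesis genes. *Chgb* encodes chromogranin B, an acidic granin that helps to form the dense core of those granules.

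The promoters of the genes that define or mark these cells are shown because the 4 transcripts stood together in the same cells. *Fev* (ENSMUSG00000055197, chr1:74881509-74885419, minus strand) and the label marker *Cryba2* (chr1:74889934-74893143, minus strand) are neighbours in GENCODE M21 on GRCm38, with 4514 bases between the gene bodies and 7735 bases between their RefSeq starts. *Chgb* lies at chr2:132781278-132795079 on the plus strand, and its sister gene *Chga* at chr12:102554969-102565028 on the plus strand. RefSeq starts *Chgb* further downstream than GENCODE does, so the window shown for it lies inside the GENCODE gene body. Each line gives the 250 bases before the RefSeq start on GRCm38.p6, 5′ to 3′ on the strand of the gene, with an exact cyclic AMP response element (TGACGTCA) in capitals.
Fev promoter, chr1:74885409-74885658: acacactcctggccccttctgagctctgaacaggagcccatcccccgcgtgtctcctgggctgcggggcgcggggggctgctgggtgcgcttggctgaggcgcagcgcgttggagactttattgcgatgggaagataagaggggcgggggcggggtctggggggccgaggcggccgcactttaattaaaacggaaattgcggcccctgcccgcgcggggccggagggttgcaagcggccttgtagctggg
Cryba2 promoter, chr1:74893144-74893393: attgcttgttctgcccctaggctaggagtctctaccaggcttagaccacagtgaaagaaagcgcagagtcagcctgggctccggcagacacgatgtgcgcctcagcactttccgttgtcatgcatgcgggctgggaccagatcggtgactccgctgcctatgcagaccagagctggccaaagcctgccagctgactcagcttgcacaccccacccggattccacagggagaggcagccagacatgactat
Chgb promoter, chr2:132781392-132781641: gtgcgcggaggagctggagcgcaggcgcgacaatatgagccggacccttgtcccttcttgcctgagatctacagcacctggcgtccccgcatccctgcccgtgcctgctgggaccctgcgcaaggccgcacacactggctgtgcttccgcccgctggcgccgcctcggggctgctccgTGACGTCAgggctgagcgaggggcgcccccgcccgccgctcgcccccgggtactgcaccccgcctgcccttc
Chga promoter, chr12:102554691-102554940: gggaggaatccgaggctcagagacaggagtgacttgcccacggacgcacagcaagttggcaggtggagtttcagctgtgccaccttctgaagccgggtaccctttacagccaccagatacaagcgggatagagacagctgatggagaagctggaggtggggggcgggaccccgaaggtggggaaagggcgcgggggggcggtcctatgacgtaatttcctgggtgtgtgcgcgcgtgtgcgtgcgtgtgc
The *Chgb* window held that element starting 72 bases before the start, and the other 3 windows did not hold the exact letters. On either strand it occurs in 508 of 32851 mouse promoters of the same length, or 1.55%. The bHLH letters CAGATG (14.4% of promoters, both strands) and TATAAA (12.4%) were in none of the 4 windows.

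The label was checked against its 5 markers. Levels are CPM, UMIs scaled to a total of 1000000 over all genes other than the 10 of the rule. *Fev* stood at 1254, 1780, 1089 and 1560 CPM in the v1 pools, at 435, 509 and 383 CPM in v2 and at 717 CPM in Fev-Cre. Every v1 pool lay above every v2 pool, with Fev-Cre between them. The rule asked for 2 *Fev* UMIs at any depth, so this order cannot be told apart from depth per cell. Median *Fev* UMIs per cell were 4 to 5 in the v1 pools and 2.5 to 4 in v2. *Chgb*, at 10285 ± 4126 CPM (SD, n = 8 pools), ranged from 5860 CPM in v2 E17.5 to 15903 CPM in v1 E12.5, while the non-endocrine cells of the same pools held 18.8 to 667 CPM. Early Fev cells, defined below, averaged 1412 CPM of *Fev* against 966 CPM in late Fev cells, which were lower in 8 of 8 pools. Of *Chgb* the early Fev cells averaged 8487 CPM, and late Fev cells were higher in 6 pools and lower in 2. In single cells the rule left a median of 4 *Fev* UMIs (2 to 30) and 58 *Chgb* UMIs (5 to 336). At the edge of the rule 266 cells had just 2 *Fev* UMIs and 10 had 5 *Chgb* UMIs, and outside it 381 cells had 1 *Fev* UMI and 16 had 4 *Chgb* UMIs.

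The 3 markers that the rule did not use behaved differently from each other. *Cldn4* and *Vim* were named by the study on these samples, and all 3 were chosen with earlier results of these data known. Their levels are thus not independent evidence of the label. *Cldn4*, a tight junction claudin (ENSMUSG00000047501, chr5:134945119-134946934), was at 1207, 1276, 1169 and 1560 CPM in the 4 v1 pools, at 237, 413 and 429 CPM in the v2 pools, and at 516 CPM in Fev-Cre. Its mean of 851 ± 503 CPM (SD, n = 8) stood beside 1060 ± 615 CPM in early Fev cells, which met the same *Fev*, hormone and *Col3a1* limits but carried *Pax4* or more than 1 *Neurog3* UMI. *Cryba2*, a crystallin gene, was at 441, 1137, 1151 and 1661 CPM in v1, at 282, 591 and 891 CPM in v2 and at 957 CPM in Fev-Cre. *Vim*, the intermediate filament vimentin (chr2:13573927-13582826), was at 998, 386, 446 and 274 CPM in v1, at 382, 155 and 159 CPM in v2 and at 315 CPM in Fev-Cre. Non-endocrine cells held 10.1 to 76.5 CPM of *Cldn4* and 1.04 to 60.7 CPM of *Cryba2* but 128 to 1603 CPM of *Vim*, so *Vim* did not set these cells apart from non-endocrine cells. With each cell thinned to 2000 UMIs, the median pool had *Cldn4* in 67.0% of late Fev cells against 0.511% of mesenchymal cells, and *Cryba2* in 68.6% against 0.301%. Epithelial classes held *Cldn4* far more often than the mesenchyme. In the v1 pools it was in 72.7 to 90.9% of late Fev and 78.1 to 100% of early Fev cells after thinning. Ductal cells of those pools held it in 31.3 to 36.5%.

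**Figure D1:**
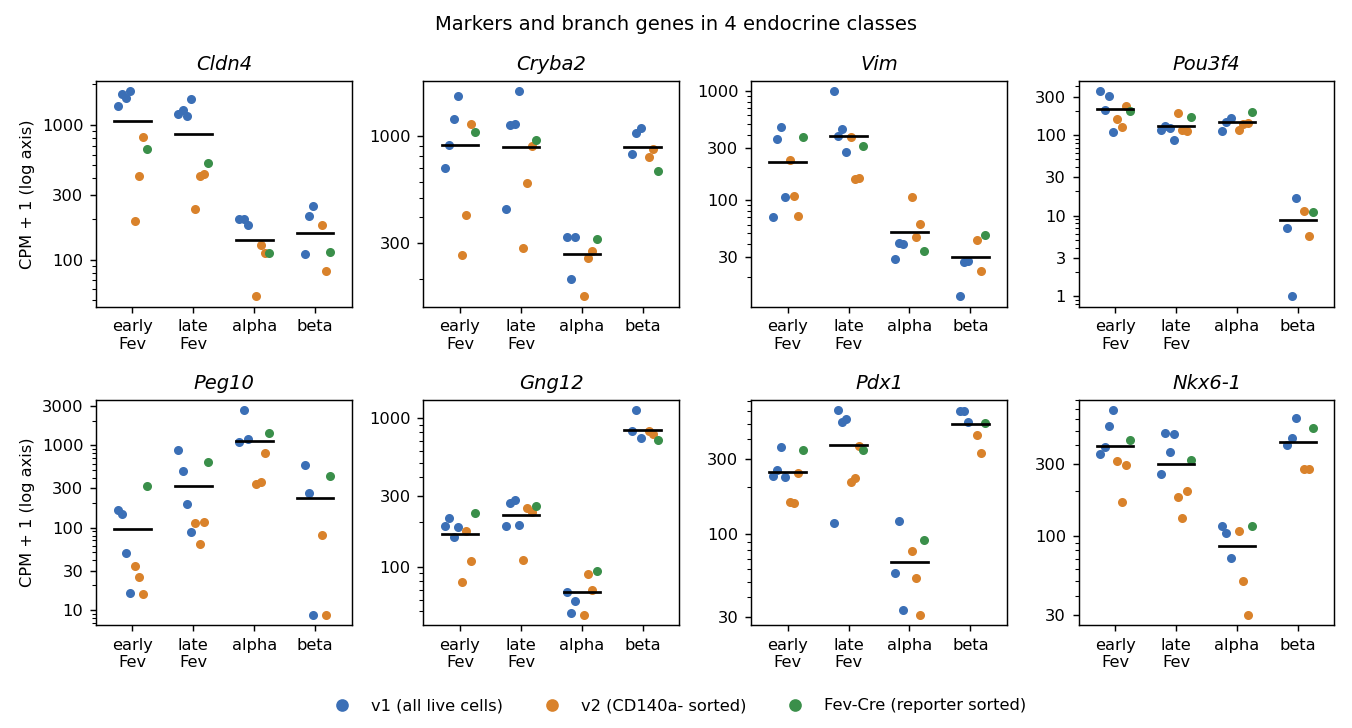
CPM plus 1 on a log axis for 8 genes in early Fev, late Fev, alpha and beta cells, 1 point per pool with at least 10 cells of the class (blue v1, orange v2, green Fev-Cre) and a bar at the mean. Late Fev cells hold *Cldn4* at 237 to 1560 CPM and *Vim* at 155 to 998 CPM, *Pou3f4* at 86.7 to 184 CPM against at most 15.5 CPM in beta cells, and *Gng12* at 109 to 278 CPM between alpha and beta levels.

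Beyond the label, 66 genes outside the rule exceeded the level in all remaining cells of the pool by 4-fold or more in all 8 pools, which is a description of cells gated from the same counts. Several of these genes stood at similar levels in early Fev cells, with means of 2086 CPM for *Chga*, 1614 for *Hmgn3*, 551 for *Gch1*, 748 for *Neurod1* and 516 for *Pax6*. The most abundant were *Chga* (2286 ± 1310 CPM, SD, n = 8), the granin partner of *Chgb*, and *Hmgn3* (1695 ± 712 CPM), a nucleosome-binding protein. *Gch1*, the first enzyme of tetrahydrobiopterin synthesis, stood at 709 ± 353 CPM and was 5.46-fold to 71.4-fold above the other cells. The endocrine factors *Neurod1* (628 ± 258 CPM) and *Pax6* (592 ± 210 CPM) and the peptide-amidating enzyme *Pam* (411 ± 112 CPM) were in the same group. *1700086L19Rik* (849 CPM) and *Fam183b* (619 CPM), both poorly characterised, were among the same 10.

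Detection of *Chga* and *Isl1* was compared across the classes at equal depth. After thinning, the median pool had *Chga* in 16.4% of Neurog3 cells (at least 3 *Neurog3* UMIs, fewer than 2 of *Fev*), 81.3% of early Fev cells and 92.0% of late Fev cells, then in 70.5% of alpha and 89.2% of beta cells, against 0.693% of mesenchymal cells. *Isl1*, a LIM factor of hormone-producing cells, was in 8.61%, 23.9% and 43.7% of the same classes and in 72.7% of alpha cells. Among pools with at least 10 beta cells, its share in beta cells was lowest in v2 E17.5, at 29.4% against 43.2% of late Fev cells. It was highest in v1 E14.5 batch 1, at 76.2% against 39.4%. The mesenchyme expresses *Isl1* too, in 15.2% of its cells at the median. With all UMIs counted, 276 late Fev cells (28.75%) had no *Isl1* UMI, from 19.9% in Fev-Cre to 65.2% in v1 E17.5. *Gcg* was in a median of 9.09% of late Fev cells and 6.39% of mesenchymal cells after thinning, and the late Fev share was the higher in 8 of 8 pools, although in Fev-Cre the shares were 46.4% and 40.6%. Since the rule capped *Gcg*, these shares are a description.

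The share of late Fev cells among gated endocrine cells was highest at E14.5 within each kit. In v1 it was 10.2% at E12.5 (95% exact binomial interval 5.20 to 17.49%), 11.4% (8.07 to 15.5%) and 20.1% (15.6 to 25.3%) in the E14.5 batches, and 10.4% (6.68 to 15.1%) at E17.5. In v2 it was 5.84% (4.55 to 7.37%) at E12.5, 9.91% (8.48 to 11.5%) at E14.5 and 2.42% (1.77 to 3.24%) at E17.5. The v2 E17.5 wells differed, with 0.795% (0.320 to 1.63%) in well 1 and 3.96% (2.80 to 5.41%) in well 2, each below the v2 E14.5 share. The intervals of both v1 E14.5 batches overlapped that of v1 E12.5, and batch 2 alone lay clear of v1 E17.5. Fev-Cre, whose reporter sort sets the mix of cells, had 24.6% (22.9 to 26.4%). The intervals cover counting error only, and no test between stages was made.

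Depth changed these shares. When every cell was thinned to 2000 UMIs before the rule was applied, the v1 pools kept shares of 9.47%, 9.75%, 19.7% and 9.94%, whereas v2 had 4.05%, 6.48% and 0.663%. The order of the stages within v2 was the same at both depths, while in v1 the first E14.5 batch fell just below E17.5, so there the highest share at E14.5 rested on batch 2. Early Fev cells outnumbered late Fev cells in all 3 v2 pools, with 11.7%, 13.9% and 4.85% of endocrine cells, and were 18.4% in Fev-Cre, where late Fev cells outnumbered them.

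**Figure D2:**
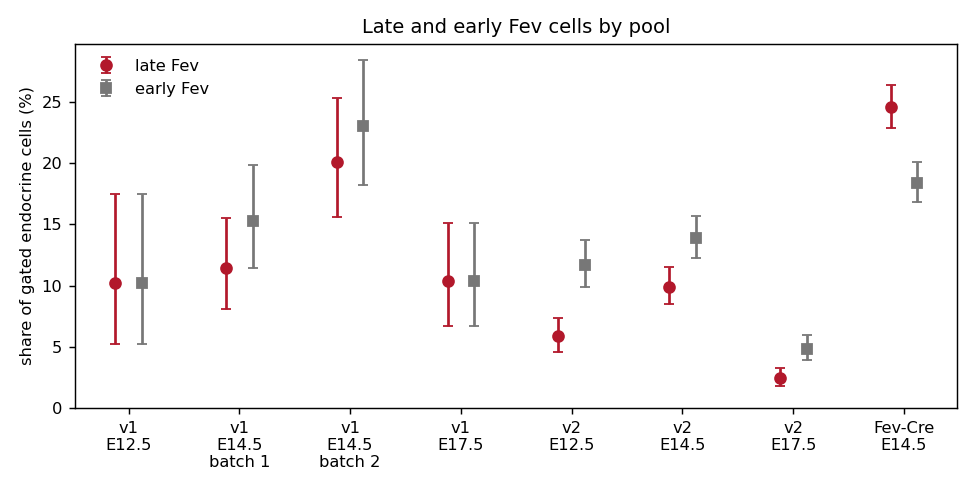
Share of gated endocrine cells (%) that were late Fev (red circles) or early Fev (grey squares) in each of 8 pools, with 95% exact binomial intervals for counting error. The highest late Fev share of each kit is at E14.5, at 20.1% in v1 batch 2 and 9.91% in v2, and Fev-Cre stands at 24.6%.

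Set against early Fev cells of the same pools, late Fev cells carried more of 6 alpha branch transcripts and of the convertase gene *Pcsk2*, and less *Btbd17*, *Gadd45a* and *Mfng*. Of 4763 genes tested, 45 (0.945%) were called, at an adjusted p below 0.05 in the quasi-likelihood test of edgeR (Benjamini-Hochberg) and a difference of 2-fold or more, 19 of them higher (0.399%) and 26 lower (0.546%) in late Fev cells. Both classes were cut from 1 suspension by *Pax4*, *Neurog3* and *Chgb*, so for genes that vary with those 3 the gate and the class cannot be told apart. Without Fev-Cre, the pool with most cells, 77 genes were called, and with the late rule tightened to 3 *Fev* and 10 *Chgb* UMIs 23 were.

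The alpha branch list, made of alpha regulators and genes the study named for that branch on these samples, had 6 of 10 tested members higher and none lower, with a median log2 difference of 1.18 against -0.01 over all genes tested. *Ttr*, the thyroxine carrier transthyretin, was at 8985, 3774, 7236 and 6804 CPM in the v1 pools, at 3694, 4401 and 3010 CPM in v2 and at 4654 CPM in Fev-Cre. Every one of those values lay above every early Fev value, which ran from 617 to 2670 CPM. The log2 difference of *Ttr* was 1.49 (SE 0.13, adjusted p = 5.611e-08). Non-endocrine cells also held *Ttr*, at 112 to 1801 CPM.

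*Peg10*, an imprinted gene derived from a retrotransposon (chr6:4747306-4760517), averaged 323 ± 309 CPM against 95.1 ± 107 CPM in early Fev cells and was higher in 8 of 8 pools, by 1.48 (SE 0.15, adjusted p = 3.749e-07). The amino acid transporter partner *Tmem27* averaged 478 ± 285 CPM against 158 ± 127 CPM, a log2 difference of 1.74 (SE 0.21). *Irx2*, an Iroquois factor of alpha cells, was called at 1.33 (SE 0.22) but was low, with 49.5 ± 48.0 CPM, and lower in 1 of 8 pools. The chromatin remodeller *Smarca1* (1.02) and the kinase *Wnk3* (1.40) were the other called members, and *Wnk3* was lower in 1 of 8 pools. Levels of the groups overlapped for every member named here apart from *Ttr*.

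The beta branch list, chosen in the same way, had 1 of 10 tested members called, and its median was 0.30. That member was *Iapp*, the islet amyloid peptide co-secreted with insulin, at 2481 ± 4167 CPM against 257 ± 374 CPM (log2 2.52, SE 0.48, adjusted p = 0.0009106). Its late Fev values were 696, 322, 1352 and 2326 CPM in v1, 103, 499 and 12606 CPM in v2 and 1945 CPM in Fev-Cre, against 3.09 to 658 CPM in the non-endocrine cells. The v2 E17.5 pool was the highest and v2 E12.5 the lowest. *Gng12*, a G protein gamma subunit (chr6:66896397-67021350), differed by 0.47 (SE 0.10, adjusted p = 0.003363) and *Pdx1*, a regulator of beta cell identity, by 0.44 (SE 0.11, adjusted p = 0.00787), both short of 2-fold. *Nkx6-1*, a further beta regulator, leaned the other way, by -0.47 (SE 0.09, adjusted p = 0.000702).

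Granule cargo and its processing enzymes were counted as well. *Pcsk2*, the convertase that cuts proglucagon in alpha cells, was at 395, 761, 771 and 910 CPM in the v1 pools, at 164, 290 and 1871 CPM in v2 and at 734 CPM in Fev-Cre. It lay above early Fev cells in 8 of 8 pools, by 1.35 (SE 0.15, adjusted p = 1.357e-06), and was the 1 called member of 4 tested. Among 5 tested granins *Scg3*, a granule sorting receptor, was called at 1.01 (SE 0.11), with 403 ± 155 CPM against 197 ± 95.1 CPM. *Resp18*, an endocrine secretory protein, averaged 143 ± 86.5 CPM against 34.8 ± 35.0 CPM (log2 1.61, SE 0.21, adjusted p = 1.451e-05). *Ppp1r1a*, a protein phosphatase inhibitor, averaged 65.0 ± 37.6 CPM against 25.5 ± 22.5 CPM. *Chga* differed by 0.24 (SE 0.09, adjusted p = 0.0769).

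Among the 26 genes that were lower in late Fev cells was *Btbd17*, a BTB-domain gene. It was at 92.9, 107, 62.1 and 28.9 CPM in v1, at 70.2, 35.3 and 27.0 CPM in v2 and at 29.0 CPM in Fev-Cre. In early Fev cells it was at 394, 610, 462 and 244 CPM, at 383, 300 and 125 CPM, and at 107 CPM in the same order. Each pool fell, although the highest late value of *Btbd17* touched the lowest early one, and the log2 difference was -2.46 (SE 0.13, adjusted p = 2.173e-11). *Gadd45a*, a growth arrest gene (chr6:67035096-67037457), was at 37.4 to 144 CPM in late and 222 to 716 CPM in early Fev cells, with no overlap between the groups (log2 -1.99, SE 0.14, adjusted p = 6.961e-09). With *Btg2*, an antiproliferative gene (log2 -1.11, SE 0.10), it made 2 called of 9 tested genes of cell cycle exit, whose median was -0.67. *Cdkn1a*, the p21 inhibitor, differed by -0.87 (SE 0.10, adjusted p = 3.933e-06), short of 2-fold.

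Among 4 tested Notch pathway genes, *Mfng*, a Fringe glycosyltransferase that tunes Notch receptors, averaged 41.3 ± 32.6 CPM against 143 ± 68.8 CPM (log2 -1.66, SE 0.14, adjusted p = 3.679e-08), and the ligand-like *Dll3* was the other called member (log2 -1.07, SE 0.16). *Igfbpl1*, a secreted IGF-binding relative, averaged 168 ± 172 CPM against 496 ± 381 CPM (log2 -1.85, SE 0.14). *Gpx2*, an epithelial glutathione peroxidase, fell from 128 ± 88.5 to 37.7 ± 32.2 CPM, and *Hpca*, a neuronal calcium sensor, from 82.9 ± 52.2 to 24.8 ± 23.8 CPM. The keratin *Krt7* was the 1 called of 11 tested junction genes, at 574 ± 236 CPM against 1132 ± 496 CPM (log2 -1.02, SE 0.10). *Cck*, the gut hormone cholecystokinin, averaged 417 ± 391 CPM against 1009 ± 734 CPM (log2 -1.47, SE 0.11, adjusted p = 1.103e-08).

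In edgeR 0 of 16 tested transcription factors of the endocrine programme reached the call, although 11 had an adjusted p below 0.05 at less than 2-fold and 12 an unadjusted p below 0.05. *Sox4* (-0.84), *Runx1t1* (-0.79), *Nkx2-2* (-0.64) and *Neurod1* (-0.32) leaned lower, and *Etv1* (0.75) and *Isl1* (0.47) higher. *Runx1t1* was used by the study to mark the earlier cells on these samples. The label markers *Cryba2* (log2 0.02, SE 0.09, adjusted p = 0.918) and *Vim* (0.38, SE 0.16, adjusted p = 0.139) were not called, and *Cldn4* leaned lower in 7 of 8 pools (log2 -0.29, SE 0.09, adjusted p = 0.045). These 3 markers thus did not separate late from early Fev cells by 2-fold.

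**Figure D3:**
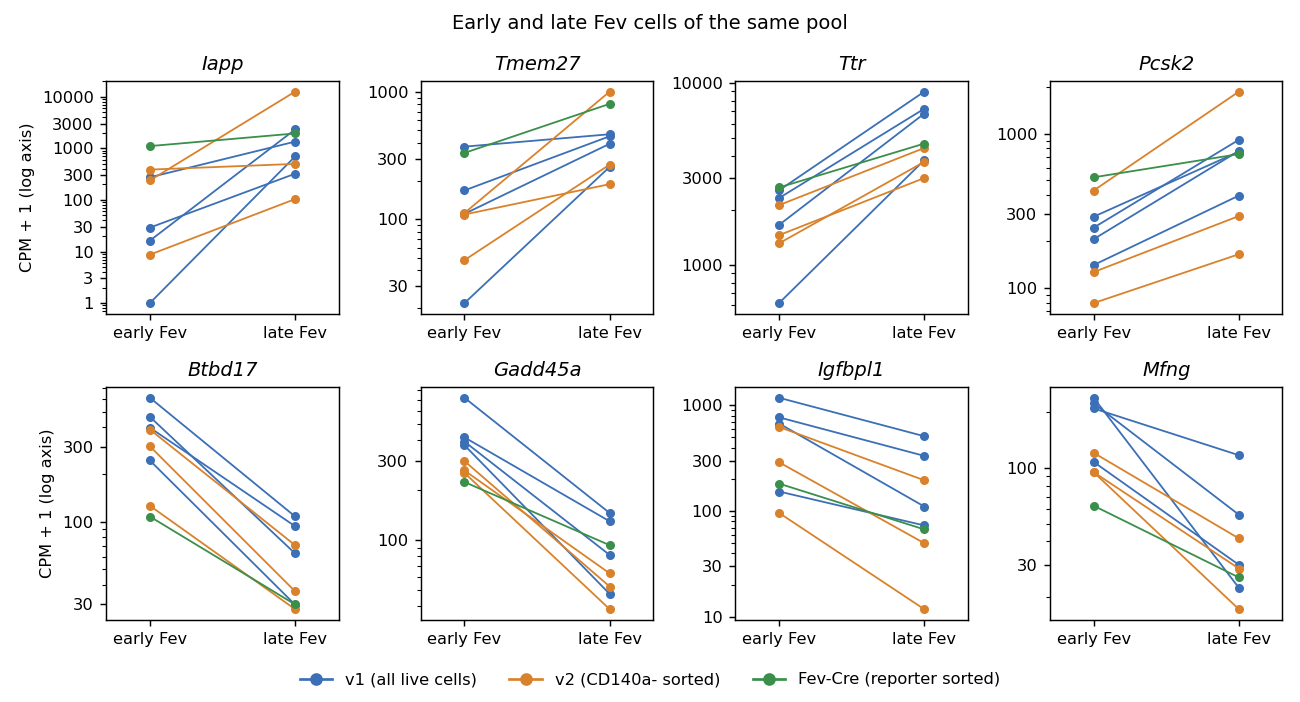
CPM plus 1 on a log axis in early and late Fev cells, with a line joining the classes of each of 8 pools (blue v1, orange v2, green Fev-Cre). All 8 lines rise for *Iapp*, *Tmem27*, *Ttr* and *Pcsk2* and all 8 fall for *Btbd17*, *Gadd45a*, *Igfbpl1* and *Mfng*, and for *Ttr* and *Gadd45a* the classes do not overlap.

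Against alpha cells (*Gcg* at 1% of UMIs or more and no other hormone at its limit), late Fev cells held less of 9 alpha branch genes and more of 3 beta branch genes. The comparison used 7 pools, since v1 E17.5 had only 8 alpha cells, and called 198 of 6110 genes (3.24%), 86 higher (1.41%) and 112 lower (1.83%) in late Fev cells. Alpha cells were chosen by *Gcg*, so for genes that vary with *Gcg* the gate and the class cannot be told apart. The comparisons with early Fev, alpha and beta cells all use the same late Fev cells and are given side by side.

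Of 11 alpha branch genes, 9 were lower in late Fev cells and none higher, with a median of -1.62 against 0.00451 over all genes. Part of this list was named by the study on these samples for its rise along that branch, so the direction was partly set by the choice. *Irx1* stood at 20.1 ± 16.3 CPM against 221 ± 91.5 CPM in alpha cells (log2 -3.07, SE 0.22, adjusted p = 1.734e-08), without overlap. *Irx2* (-2.53), *Tmem27* (-2.31), *Wnk3* (-2.14), *Peg10* (-1.98) and *Ttr* (-1.62) followed, and *Auts2* (-1.31), *Slc38a5* (-1.09) and *Isl1* (-1.04) were lower by less. *Auts2* was lower in 6 pools and higher in 1. *Isl1*, a factor of hormone-producing cells, is also among the endocrine factors counted below. *Tmem27* and *Ttr* did not overlap between the classes, with 188 to 1004 against 1437 to 2581 CPM for *Tmem27*. *Peg10*, *Ttr*, *Tmem27*, *Irx2* and *Wnk3* in late Fev cells thus lay above early Fev and below alpha cells. The POU factor *Pou3f4* did not follow that order, at 134 ± 28.6 CPM in late Fev and 143 ± 27.8 CPM in alpha cells (log2 -0.10, SE 0.14, adjusted p = 0.6979). Early Fev cells had more *Pou3f4* on average, at 209 ± 83.6 CPM against 128 ± 31.3 CPM over 8 pools, and late Fev cells were lower in 7 of them (log2 -0.38, SE 0.13, adjusted p = 0.0667).

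Of 9 beta branch genes tested against alpha cells, 3 were higher, and *Iapp* was lower (-2.38). The beta branch list was also named in part on these samples. *Pdx1* averaged 340 ± 175 CPM against 65.5 ± 32.7 CPM (log2 2.22, SE 0.21, adjusted p = 4.86e-07). *Nkx6-1* averaged 275 ± 121 CPM against 84.3 ± 34.8 CPM (log2 1.56, SE 0.18) and *Gng12* 224 ± 58.8 CPM against 66.9 ± 18.1 CPM (log2 1.53, SE 0.12), both without overlap between the classes. The processing enzymes split, with *Pcsk1*, the convertase of proinsulin, higher (log2 1.53, SE 0.29, adjusted p = 0.0009687) and *Pcsk2* lower (log2 -1.20, SE 0.15). Of 17 endocrine factors 3 were higher (*Mlxipl* 1.82, *Hhex* 1.70 and *Sox4* 1.29) and 2 lower (*Etv1* -1.56 and *Isl1*). The differences of *Iapp*, *Pcsk1*, *Hhex* and *Sox4* from alpha cells did not run the same way in every pool. Of 6 tested hormone genes outside the rule, 5 were lower, among them *Pyy* at 5484 ± 4577 CPM against 20504 ± 7150 CPM and *Ppy* at 290 ± 421 CPM against 740 ± 674 CPM.

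Besides *Irx1*, the largest differences from alpha cells that ran the same way in all 7 pools included genes outside the alpha branch list. *Npepl1*, an aminopeptidase, was at 209, 504 and 289 CPM in v1 E12.5 and the v1 E14.5 batches, at 59.3, 189 and 216 CPM in v2, and at 154 CPM in Fev-Cre. All of these values of *Npepl1* exceeded the highest alpha value of 45.0 CPM, and the log2 difference was 2.83 (SE 0.20, adjusted p = 1.734e-08). *Ppp1r14c*, a phosphatase inhibitor (67.2 ± 32.5 against 6.57 ± 4.53 CPM), *Pcyt1b*, an enzyme of phosphatidylcholine synthesis (76.9 ± 43.3 against 9.26 ± 8.14 CPM), and *Vim* (406 ± 284 against 50.3 ± 26.7 CPM) did not overlap between the classes either. *Rgs4*, a brake on G protein signalling, was nearly absent at 6.88 ± 7.97 CPM against 124 ± 55.9 CPM (log2 -4.09, SE 0.26, adjusted p = 5.504e-09). The vasoactive peptide gene *Edn3* was lower at 20.9 ± 11.7 CPM against 128 ± 27.9 CPM. *Serpina1b* (log2 -2.73) belongs to a family of near-identical genes, so its counts are less certain. *Cldn4* was higher by 2.16 (SE 0.12, adjusted p = 6.457e-10) and *Cryba2* by 1.39 (SE 0.15).

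Beta cells were those with *Ins1* and *Ins2* at 1% of UMIs or more and no other hormone at its limit. Against them, late Fev cells held more *Pou3f4* and *Smarca1* of the alpha branch list and less of 5 beta branch genes. In 6 pools, without those of E12.5, which had 0 and 5 beta cells, 236 of 4653 genes (5.07%) were called, 73 higher (1.57%) and 163 lower (3.5%). Beta cells were chosen by their insulin message in the same way. The count rose to 435 without v1 E14.5 batch 1, 447 without batch 2 and 436 without v1 E17.5.

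*Pou3f4* was at 129, 120 and 86.7 CPM in the v1 E14.5 batches and v1 E17.5, at 115 and 111 CPM in v2 E14.5 and E17.5, and at 165 CPM in Fev-Cre. Beta cells held no more than 15.5 CPM of *Pou3f4* in any pool, and the log2 difference was 3.94 (SE 0.21, adjusted p = 8.165e-09). With *Smarca1* (log2 2.06, SE 0.23) it made up the 2 of 9 tested alpha branch genes that were higher, and none were lower. *Etv1*, a second ETS factor, averaged 115 ± 44.9 CPM against 14.9 ± 14.4 CPM and stood highest in alpha cells. *Runx1t1* (log2 2.33, SE 0.20) was higher too, and the carbohydrate response factor *Mlxipl* was lower (log2 -1.13). *Hhex*, a regulator of delta cells, was called higher (log2 1.98, SE 0.28) but did not run the same way in every pool. After thinning it was in 0 to 9.09% of late Fev and 23.0 to 56.6% of ductal cells by pool. Early Fev cells averaged 58.5 CPM of *Hhex* against 48.5 CPM in late Fev cells over 8 pools.

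Of 11 tested beta branch genes, 5 were lower and none higher, with a median of -0.70 against 0.02 over all genes. Part of this list was named by the study on these samples for its rise along the beta branch, so the direction was partly set by the choice. *Iapp* was at 3175 ± 4686 CPM against 28530 ± 13573 CPM (log2 -4.13, SE 0.34, adjusted p = 5.639e-07). *Gng12* was at 244 ± 31.9 CPM against 829 ± 154 CPM (log2 -1.82, SE 0.11, adjusted p = 1.671e-08), without overlap. *Papss2* (-1.96), *Wipi1* (-1.70) and *Tssc4* (-1.17) were the others. *Pdx1* was not among them, at 430 ± 145 CPM against 494 ± 106 CPM (log2 -0.40, SE 0.12, adjusted p = 0.02649), nor was *Nkx6-1*, at 328 ± 144 CPM against 422 ± 133 CPM (log2 -0.63, SE 0.13, adjusted p = 0.002218).

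The strongest contrast with beta cells was *Npy*, neuropeptide Y, at 3.15 ± 4.18 CPM in late Fev and 2525 ± 972 CPM in beta cells (log2 -8.19, SE 0.34, adjusted p = 1.414e-09). *Nnat*, an imprinted proteolipid of the endoplasmic reticulum, followed at 464 ± 413 CPM against 8731 ± 4155 CPM (log2 -4.50, SE 0.25). *Prss53* (6.60 ± 6.42 against 168 ± 128 CPM), *Tmem215* (4.07 ± 5.77 against 95.3 ± 41.8 CPM) and the protease *Bace2* (3.07 ± 5.80 against 79.1 ± 44.0 CPM) were close to absent. The granule docking gene *Sytl4* was the 1 called of 15 tested exocytosis genes, at 36.4 ± 15.7 CPM against 268 ± 33.4 CPM (log2 -3.25, SE 0.16), and the granin *Scg2* was lower as well (log2 -2.74, SE 0.17). In the other direction *Cdkn1a* was higher, at 212 ± 54.4 CPM against 66.3 ± 27.0 CPM (log2 1.59, SE 0.20, adjusted p = 4.456e-05). *Vim* (log2 2.67, SE 0.20) and *Cldn4* (2.16, SE 0.18) separated late Fev from beta cells, while *Cryba2* did not (0.10, SE 0.12, adjusted p = 0.574).

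Transcripts of both branches were found together in some late Fev cells, for which 2 pairs of genes were counted. With all UMIs, 321 of 960 cells (33.4%) held *Peg10* and *Gng12* together, 18.4% *Peg10* alone, 32.1% *Gng12* alone and 16.0% neither. Fev-Cre supplied 250 of the 321 cells, and without it the share was 18.2%. Thinning to 2000 UMIs left both transcripts in 113 of 957 cells (11.8%), or in 5.93% without Fev-Cre. The thinned share was 5.77% in early Fev, 9.54% in alpha and 9.52% in beta cells, and 0.0145% in ductal and 1.42% in mesenchymal cells. Without Fev-Cre it was 2.41% in early Fev, 5.59% in alpha and 2.96% in beta cells.

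By pool, the thinned share of this pair averaged 9.03 ± 5.35% in late and 3.03 ± 3.33% in early Fev cells, and was higher in late Fev cells in 8 of 8 pools. Against alpha cells it was 9.67 ± 5.44% and 8.72 ± 4.77%, higher in late Fev cells in 5 of 7 pools. Against beta cells it was 8.26 ± 4.31% and 13.2 ± 12.46%, higher in late Fev cells in 2 of 6 pools. The order of late Fev against alpha and beta cells thus varied from pool to pool.

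*Irx2* and *Pdx1* were together in 122 late Fev cells (12.7%) with all UMIs, or 7.67% without Fev-Cre. After thinning the share was 2.30% in late Fev, 1.29% in early Fev, 3.75% in alpha and 0.463% in beta cells, with 0.0434% in ductal cells and 0 of 7542 mesenchymal cells. By pool it was higher in late than in early Fev cells in 5 of 8 pools and lower in 1. These shares were described without a test, because joint detection also follows the level of each gene.

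The stage comparisons within late Fev cells rested on few pools, and their calls were fragile, so the number of calls does not show how many genes changed. The 7 Swiss Webster pools were fitted with stage and kit, where every stage and kit other than v1 E14.5 had a lone pool, assumed to vary like the others. At E17.5, 52 of 5500 genes (0.945%) differed from E14.5, 14 higher (0.255%) and 38 lower (0.691%), and at E12.5, 35 (0.636%) did, 16 higher (0.291%) and 19 lower (0.345%). Without the kit term edgeR called 0 genes at either stage, with 161 and 181 genes at an unadjusted p below 0.05, and DESeq2 with the kit term called 17 and 20. Leaving out v2 E14.5 left 6 and 1 calls, leaving out v2 E17.5 left 1 at E17.5, and leaving out v2 E12.5 left 4 at E12.5. Without v1 E12.5 the counts were 140 and 58, and without v1 E17.5 they were 116 and 66. Only 13 of the 52 and 10 of the 35 called genes stood at least 2-fold above the non-endocrine cells of their pools. This limit was set after the data had been seen.

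Those above the surrounding cells included hormone and granule genes and an immune gene. At E17.5 *Iapp* was at 2326 CPM in v1 and 12606 CPM in v2, above the E14.5 values of 322, 1352 and 499 CPM (log2 3.57, SE 0.78, adjusted p = 0.02593). The v1 E17.5 level rested on few cells, since 6 of 23 held *Iapp* with all UMIs. After thinning it was in 13.6% of late Fev cells of v1 E17.5 and 50% of v2 E17.5. The thinned shares at E14.5 were 24.2% and 33.9% in v1 and 27.6% in v2. *Slc30a8*, the zinc transporter of insulin granules, was at 101 and 208 CPM at E17.5, and at 0, 51.1 and 23.3 CPM at E14.5 (log2 2.57, SE 0.54). *Pcsk1n*, which encodes the proprotein convertase inhibitor proSAAS, was at 3958 and 3288 CPM at E17.5 against 911, 1421 and 733 CPM at E14.5 (log2 1.97, SE 0.37, adjusted p = 0.00736). *Cd79a*, a B cell receptor subunit, had 4 and 25 UMIs at E17.5 and 0 in all 5 earlier Swiss Webster pools. It was low in the non-endocrine cells of those E17.5 pools, at 12.4 and 9.46 CPM, but not in early Fev cells. Early Fev cells held up to 76.2 CPM of it against up to 67.5 CPM in late Fev cells. The late Fev level was lower in 5 of 8 pools and higher in 0. The 4 immune markers summed to 151 CPM in late Fev cells of v2 E17.5, their highest of all pools, and to 0 in those of v1 E17.5. Both E17.5 pools exceeded all E14.5 pools for *Iapp*, *Slc30a8*, *Pcsk1n* and *Cd79a*. *Wnt4*, a secreted ligand, was at 72.2 and 40.5 CPM at E17.5 against 2.83 to 10.7 CPM at E14.5.

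Of 10 hormone genes outside the rule, 7 were tested by stage, of which *Iapp* was higher and *Cck* and *Gast* lower at E17.5, while *Cck* and *Gast* were higher at E12.5. The gut peptide gene *Pyy* was called at neither stage, at 1300 and 2415 CPM at E12.5, at 4386, 5293 and 4224 CPM at E14.5 and at 419 and 15278 CPM at E17.5. *Cck* was at 1230 and 627 CPM at E12.5 in v1 and v2, at 450, 332 and 112 CPM at E14.5 and at 101 and 13.5 CPM at E17.5. *Gast*, gastrin, was at 905 and 259 CPM, then 214, 179 and 86.9 CPM, then 28.9 and 27.0 CPM. *Sct*, secretin, which is not on that list, was at 998 and 644 CPM, then 161, 212 and 80.5 CPM, then 0 and 18.9 CPM. The E12.5 and the E17.5 differences from E14.5 were called for all 3 genes, with log2 values of 2.12 and -2.50 for *Cck*, 1.88 and -1.91 for *Gast* and 2.66 and -2.80 for *Sct*. Fev-Cre, at E14.5 on another background, had 469 CPM of *Cck*, 662 CPM of *Gast* and 152 CPM of *Sct*. *Cartpt*, a neuropeptide precursor, was at 998 and 104 CPM at E12.5 and at 3.53 to 42.9 CPM at E14.5 (log2 5.12, SE 0.44, adjusted p = 6.486e-07).

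The calcium-binding protein *Scgn*, secretagogin, was lower at E12.5, at 163 and 96.7 CPM against 461, 497 and 279 CPM (log2 -1.51, SE 0.34, adjusted p = 0.03463). Calls without that margin over the surrounding cells included exocrine and immediate-early genes. *Fos* was at 488 and 214 CPM at E12.5 against 1898, 1710 and 636 CPM at E14.5 (log2 -1.70, SE 0.37, adjusted p = 0.03463), and *Egr1* (-1.74) and *Junb* (-1.62) were lower there too. The stress-response genes *Atf4* (1.48) and *Gadd45b* (2.55) were higher at E17.5. Pancreata of later stages were dissociated for longer by the labels, so stage and dissociation time cannot be told apart. *Cpa1*, an acinar carboxypeptidase, had a log2 value of -5.21 at E17.5. *Hes1*, a Notch target, was lower at both stages (-1.92 and -1.88), at 0 to 361 CPM, while the non-endocrine cells held 144 to 753 CPM. *Hbb-y*, an embryonic globin gene with near-identical relatives, was higher at E12.5.

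The lists of other cell types moved with those pools. Summed over 4 acinar markers, late Fev cells held 14.4 to 2996 CPM, with the maximum in v2 E14.5 and the minimum in v1 E17.5, beside 208 to 6944 CPM in non-endocrine cells. The 5 haemoglobin genes summed to 5.95 to 25394 CPM. Mesenchymal markers (14.1 to 116 CPM over 5 genes), endothelial markers (0 to 21.6 CPM over 4) and immune markers (0 to 151 CPM over 4, highest in v2 E17.5) were also measured, and *Pdgfra*, which encodes CD140a, was at 0 in 6 of 8 pools. The part of such RNA in the stage calls was not tested, but without the 50 cells that held these markers 60 genes were called at E17.5 and 36 at E12.5. With well 2 alone as the v2 E17.5 pool 40 and 34 were called.

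**Figure D4:**
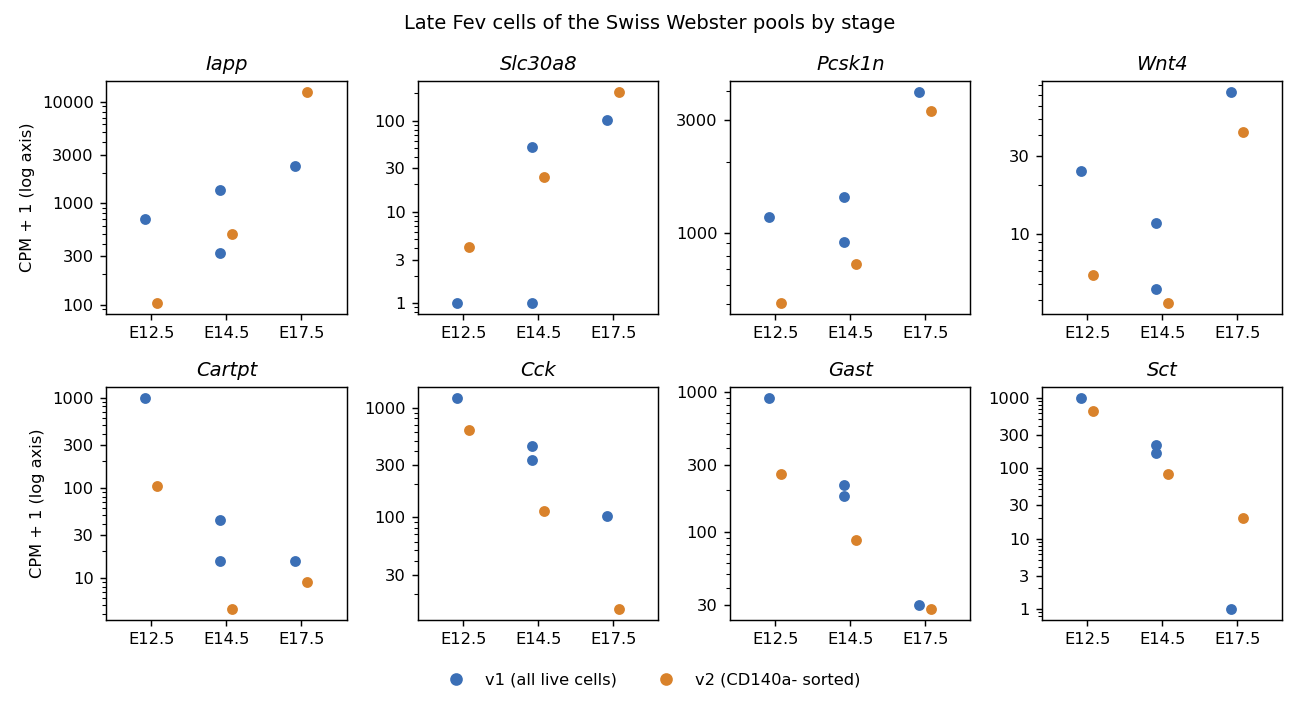
CPM plus 1 on a log axis in late Fev cells by embryonic stage, 1 point per Swiss Webster pool (blue v1, orange v2). *Iapp*, *Slc30a8*, *Pcsk1n* and *Wnt4* are highest at E17.5 within each kit, while *Cck*, *Gast* and *Sct* fall at each stage within both kits and *Cartpt* is highest at E12.5 within each kit.

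In the Fev-Cre pool the reporter transcript could be set beside the endogenous gate. The label was not used by the rule, but the sort enriched for GFP+ cells. Of 569 late Fev cells 564 held *eGFP*, or 99.1% (95% exact binomial interval 98.0 to 99.7%), and 98.4% held 2 or more UMIs. Early Fev cells held it in 89.4% (86.1 to 92.2%), Neurog3 cells in 19.7%, alpha cells in 99.8% and beta cells in 99.7%. Ductal and mesenchymal cells, which should lack the recombined reporter, held 1 UMI or more in 28.5% and 14.4% and 2 or more in 5.11% and 1.40%. At 2 or more UMIs the Neurog3 cells, with 4.27% (2.07 to 7.72%), lay between the mesenchymal and the ductal share. Their *eGFP* level was 66.9 UMIs per 1000000, above 25.6 in ductal and 30.7 in mesenchymal cells. After thinning to 2000 UMIs 95.1% of late and 82.2% of early Fev cells held *eGFP*. Its level was 1989 in late and 1617 in early Fev cells per 1000000 UMIs, and *tdTomato* was in 2.64% of late Fev cells. The *tdTomato* transcript was sparse throughout, in 11.5% of ductal and 9.96% of mesenchymal cells. This is 1 library, so the difference between the classes has no replicate.

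**Figure D5:**
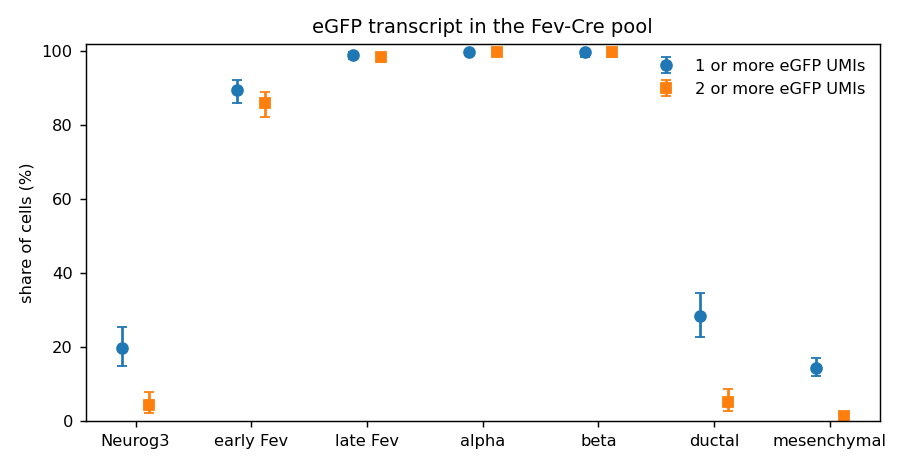
Share of cells (%) of the Fev-Cre pool with at least 1 (blue circles) or at least 2 (orange squares) *eGFP* UMIs in 7 gated classes, with 95% exact binomial intervals. Late Fev, alpha and beta cells are at 98.4% or above on both measures, early Fev cells at 89.4% and 85.9%, and Neurog3, ductal and mesenchymal cells at 5.11% or below with 2 or more UMIs.

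The serotonin programme that *Fev* drives in neurons was present only in part. *Tph2*, the neuronal tryptophan hydroxylase, had 0 UMIs in late Fev cells of all 8 pools, which in the deepest pool, Fev-Cre, allows up to 0.744 CPM. *Tph1*, the peripheral form, had 1 UMI in v2 E14.5 and 5 in Fev-Cre. The vesicle transporter *Slc18a2* was at 0 to 3.65 CPM. *Ddc*, the decarboxylase shared by serotonin and dopamine synthesis, was at 139, 247, 98.6 and 202 CPM in v1, at 63.9, 134 and 121 CPM in v2 and at 121 CPM in Fev-Cre. It stood close to early Fev cells, at 141 ± 57.9 CPM against 131 ± 56.0 CPM, higher in 4 of 8 pools and lower in 4 (log2 -0.06, SE 0.14, adjusted p = 0.8633). It was higher than in alpha cells (log2 1.14, SE 0.17, adjusted p = 0.0001169) and beta cells (log2 1.42, SE 0.19, adjusted p = 7.173e-05), and *Maob*, a degrading oxidase, was lower than in beta cells (log2 -1.87, SE 0.18). Of 12 serotonin genes 2 passed the count filter against early Fev cells and 3 against alpha and beta cells, so most of the list was too low to test.

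Cell cycle message in late Fev cells was below that of the non-endocrine cells in each pool. *Mki67* had 0 UMIs in all 4 v1 pools, which allows up to 10.96 to 69.6 CPM, and was at 13.5 to 29.6 CPM in v2 and Fev-Cre, and *Top2a* at 0 to 108 CPM. The 16 S and G2/M genes summed to 101 to 1296 CPM, beside 1184 to 3407 CPM in the non-endocrine cells of the pools. Against early Fev cells 2 of the 16 could be tested and edgeR called 0, with 0 at an unadjusted p below 0.05. With all UMIs *Mki67* was in 16.7% of late Fev cells of v2 E12.5 and 11.5% of v2 E14.5, where alpha cells held it in 11.9% and 3.54%. Thinned detection of *Mki67* reached at most 2.11% of late Fev cells in any pool, against at most 2.58% of early Fev and 4.41% of alpha cells. It was lower than in ductal cells in 8 of 8 pools and than in mesenchymal cells in 7 of 8.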

How the data were processed

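The authors deposited UMI counts per gene and cell, made by them with Cell Ranger 1.1 for version 1 libraries and 2.1 for version 2 (default settings, mm10 reference). For Fev-Cre the alignment with *eGFP* and *tdTomato* added was used, and the alignment without them was not, being the same cells. The 2 v2 E17.5 wells were summed. Reads, imaging and human samples were not analysed here. The members and gene lists were chosen with earlier results of these data known.

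Cells with 200 genes were gated by the rules in the text, with no doublet caller. The gates on hormones, *Chgb* and *Col3a1* set some mixed droplets aside, and the 50 late Fev cells with markers of another type were left out in an alternative. UMIs were summed per pool and class, and the 10 rule genes were removed before normalization. CPM has these sums without the rule genes as its base. Tests used edgeR 4.0.16 (glmQLFit, TMM, filterByExpr) in R 4.3.3, with Benjamini-Hochberg adjustment over all genes tested, pools of at least 10 cells per class, the pool as a block between classes, and kit as a term between stages. The block rests on shared suspensions. As a check, after gene means were removed, deviations correlated within pools at 0.253 to 0.861 for early Fev, 0.300 to 0.783 for alpha and 0.423 to 0.842 for beta cells. DESeq2 1.42.0 was an alternative. The edgeR fits between classes and between stages were also run on simulated pool counts. Thinning drew 2000 UMIs per cell. A count of 0 was bounded at 3 UMIs.

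Genes were named by a fixed rule, which took members of the lists, the 6 largest called differences in each direction that ran the same way in every pool, the rule and label genes, and the 10 most abundant of the genes 4-fold above other cells. *Etv1*, *Cdkn1a* and other list members short of 2-fold were named for contrast after their values were seen. Some genes that the rule or the lists held are not reported here, and they stayed in the fits over all genes. Gene coordinates were read from GENCODE M21, GRCm38 (a position for 310 of 311 named genes), and promoters from RefSeq, GRCm38.p6.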

Additional observations from a re-analysis of the deposited data

How the results depend on the processing

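Of 58 results on single genes that the largest differences gave, none reversed direction under any alternative, and 758 of 880 alternative values kept the call. Those genes were picked because they were called and ran the same way in every pool, so few reversals could occur. The number of called genes moved more. Between E17.5 and E14.5, against 52, DESeq2 called 17, no count filter 149, a minimum of 20 cells 140, thinned cells 9, the stricter rule 2, no kit term 0, Fev-Cre added 1, and genes 2-fold above other cells 13. Between E12.5 and E14.5, against 35, the same settings called 20, 80, 58, 13, 8, 0, 1 and 10. Against early Fev cells, 45 became 72 with DESeq2, 199 without the filter, 23 with the stricter rule and 5 with no replicate block. Against alpha cells, 198 became 656 without the filter, 77 with thinned cells and 124 with no replicate block. Against beta cells, 236 became 841 without the filter and 90 with thinned cells, and with no replicate block 190 were called. With v1 E14.5 batch 1 left out and v1 batch 2 and v2 as the replicate block, the stage fits gave 58 and 33, as without that pool alone, since the kit is already a term. The cause of these changes was not tested. Leaving out each pool in turn gave 1 to 140 calls at E17.5, 1 to 66 at E12.5, 33 to 77 against early Fev, 146 to 266 against alpha and 212 to 447 against beta cells.

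Late Fev cells were also set against all cells with at least 2 *Fev* UMIs that met the hormone and *Col3a1* limits. Their share was 45.8% in v1 E12.5, 39.8% and 45.2% in the v1 E14.5 batches, 39.7% in v1 E17.5, 32.4%, 39.2% and 32.1% in v2 and 55.1% in Fev-Cre. The stricter rule (3 *Fev* and 10 *Chgb* UMIs) gave 7.41% of endocrine cells in v1 E12.5, 7.49% and 14.0% in the v1 E14.5 batches, 6.31% in v1 E17.5, 3.81%, 6.99% and 0.992% in v2 and 17.8% in Fev-Cre. Thinning gave 4.05%, 6.48% and 0.663% in v2 and 18.6% in Fev-Cre, 95.1% for *eGFP*, 11.8% for *Peg10* with *Gng12* and 2.30% for *Irx2* with *Pdx1*. Without Fev-Cre these pairs, with all UMIs, were in 18.2% and 7.67% of late Fev cells, and the v2 E17.5 wells alone gave shares of 0.795% and 3.96%, both chosen after seeing the data. For single genes the smallest pool, v1 E12.5, had 43885 late Fev UMIs, so 0 UMIs there allows up to 69.6 CPM.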
